A study of Mus musculus with 6 samples.

Results

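Genes that fat cells use, chosen by name, were examined in RPE/choroid, which joins the pigmented epithelium supporting the photoreceptors to the blood vessel layer that feeds it. They were the 10 rows of the deposited RPE/choroid table whose symbol was Adipoq, Plin1, Plin4, Cidec, Fabp4, Pparg, Lep, Retn, Ucp1 or Scd1, out of 33924 genes in all. All 10 were present, and none was listed at 0. Among the 10, the genes most restricted to fat cells were Adipoq, Plin1, Cidec, Lep and Retn. They and the brown fat gene Ucp1 stood below the median of genes above 0. The 4 genes above it, Scd1, Plin4, Fabp4 and Pparg, are also used by other cells. Of 9 further fat-cell markers outside the 10, 6 lay above the median per kb and 5 by mean. Over all listed genes, those at 0 included, the median was lower and Adipoq, Plin1 and Cidec were above it by mean. Against the higher median of protein-coding genes Pparg was below by mean and above per kb. The genes are referred to as the adipocyte gene panel, and these levels do not show which cells the RNA came from.

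Adipocytes store triglyceride in 1 large lipid droplet and release fatty acids and hormones. PPARγ, encoded by Pparg, is the transcription factor that switches on most of the other genes of the panel. Perilipins and CIDE proteins coat and fuse lipid droplets, and Fabp4 carries fatty acids through the cytosol. Scd1 makes the monounsaturated fatty acids that enter triglyceride, adiponectin, leptin and resistin are secreted, and Ucp1 lets brown fat release heat. Fat lies around the eye in the orbit, outside the sclera from which the RPE/choroid was scraped.

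RNA came from C57BL/6J mice, wild type and labelled male, with 3 young libraries (1 to 2 months) and 3 aged libraries (20 to 24 months in the titles, 22 to 24 months in the time label). The study names both sexes and a somewhat higher age for its young group, so both are uncertain. A pair of eyes was pooled for each library, muscle, connective tissue and optic nerve were cut away beforehand, and ribosomal RNA was removed without selection for poly(A) tails. Each level below is the authors' mean over all 6 libraries, in normalized counts, which mixes young and aged mice. The columns that set the age groups against each other hold the authors' own comparison and were not used here, and no value per library was analysed. Depth per library is unknown here, no spread between mice can be given, and no statement on age is made. A statement that 1 gene stood above another is a description with no test. In bulk tissue, few cells that use a gene strongly and many that use it weakly cannot be told apart.

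Because a gene is the unit of the table, transcripts from different start sites of a gene are added together. This matters for Pparg, on chromosome 6 at 115360951 to 115490399 (GRCm38, plus strand), for which RefSeq (GRCm38.p6) gave 3 starts. The internal start, 60922 bases beyond the first, lies where the fat-cell form of the receptor, PPARγ2, begins, while the upstream starts serve the form that is found more widely. The mean of Pparg does not say which start was used. The 250 bases before each start are shown with those before the start of Adipoq, the most fat-restricted hormone gene of the panel. Capitals mark exact matches on either strand to 3 motifs. They are TATAAA (the TATA box), then CCAAT (the CCAAT box), and lastly the nuclear receptor core site, AGGTCA, to which PPARγ and others bind.

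Pparg first start, chr6:115360894-115361143, plus strand: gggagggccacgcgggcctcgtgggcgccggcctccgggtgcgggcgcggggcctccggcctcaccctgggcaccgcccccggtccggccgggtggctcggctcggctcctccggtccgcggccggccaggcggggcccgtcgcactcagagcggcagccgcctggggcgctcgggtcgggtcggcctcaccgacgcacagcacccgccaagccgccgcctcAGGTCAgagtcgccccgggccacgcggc

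Pparg second start, chr6:115362099-115362348, plus strand: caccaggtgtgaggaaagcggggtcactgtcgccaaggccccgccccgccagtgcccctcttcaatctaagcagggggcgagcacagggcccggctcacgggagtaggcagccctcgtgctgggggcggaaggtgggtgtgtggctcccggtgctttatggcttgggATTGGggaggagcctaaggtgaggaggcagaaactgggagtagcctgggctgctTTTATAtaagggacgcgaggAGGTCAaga

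Pparg internal start, chr6:115421816-115422065, plus strand: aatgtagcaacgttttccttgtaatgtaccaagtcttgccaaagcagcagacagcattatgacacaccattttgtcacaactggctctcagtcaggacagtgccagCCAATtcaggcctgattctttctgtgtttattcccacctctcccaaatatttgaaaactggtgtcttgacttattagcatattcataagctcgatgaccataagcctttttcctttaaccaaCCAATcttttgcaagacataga

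Adipoq, chr16:23146286-23146535, plus strand: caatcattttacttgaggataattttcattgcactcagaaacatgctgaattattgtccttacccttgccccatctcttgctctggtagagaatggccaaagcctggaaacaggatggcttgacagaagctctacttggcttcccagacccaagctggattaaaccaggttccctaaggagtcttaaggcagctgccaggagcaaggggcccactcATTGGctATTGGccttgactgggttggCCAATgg

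The first start of Pparg held 1 AGGTCA match. The second held 1 match of each of the 3 motifs. The internal start held 2 CCAAT matches and neither of the other motifs. Adipoq held 3 CCAAT matches within its last bases. RefSeq gave 11 such windows for 8 of the 10 genes. CCAAT was found in 4 of the 11 and in 33.8% of the 32851 windows of all genes, AGGTCA in 3 of the 11 and in 14.0% of all, and TATAAA in 1 of the 11 and in 12.4% of all. None of the motifs contains another. These are matches of letters and not binding sites.

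The levels fell into an upper group of 4 genes and a lower group of 6. Levels of different genes were compared per kb of the longest GENCODE transcript, in normalized counts per kb, and also by the mean as deposited. Both are needed because the study made its normalized counts from TPM values, a transcript abundance already divided by length, so a division per kb may be the second one. The upper group and the lower group were the same on both. The median over 22862 genes above 0 with a known length was 46.7 normalized counts per kb. Scd1, Plin4, Pparg and Fabp4 stood above it, and Adipoq, Cidec, Plin1, Retn, Ucp1 and Lep stood below it. Before division by length the same 4 genes lay above the median of 82.1 normalized counts over the 26681 genes above 0. The upper group held 98.4% of the summed mean of the panel. The lower group together held 1.57% of it, with means that add up to 65.3 normalized counts.

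**Figure D1:**
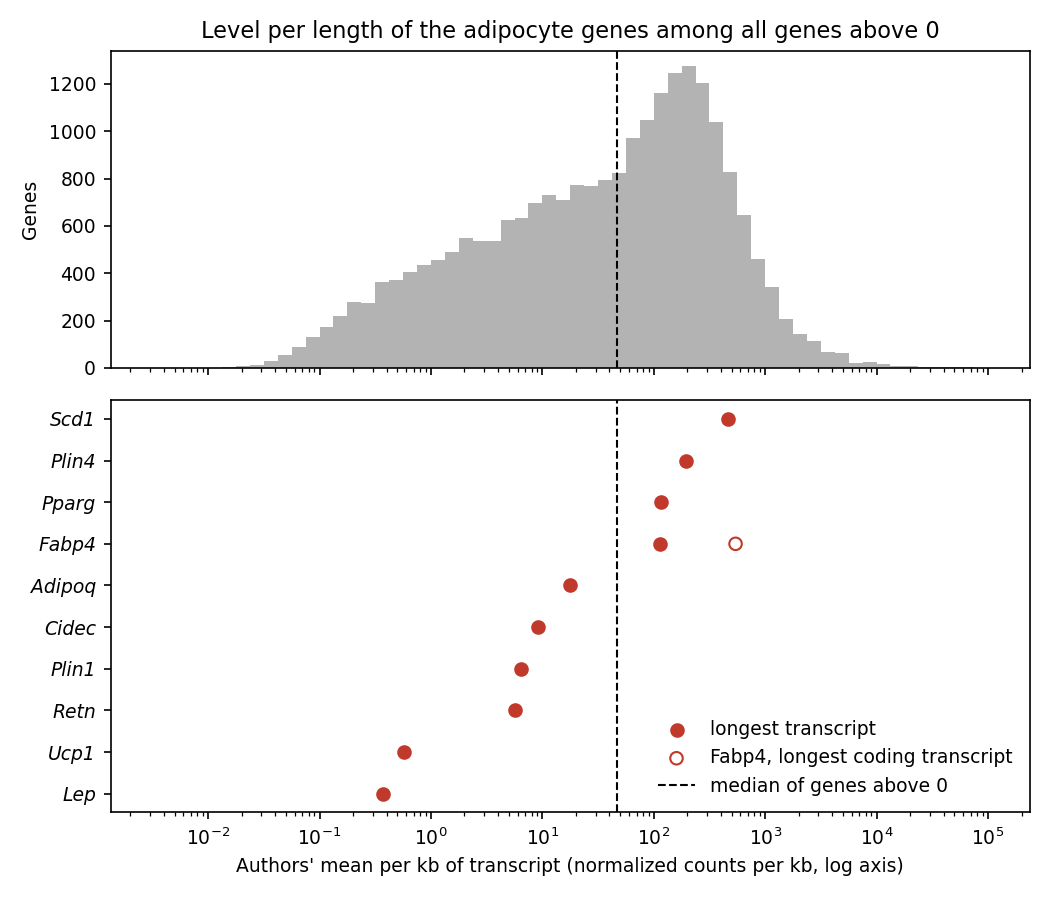
Level of each adipocyte gene (lower panel, 1 point per gene) beneath the histogram of all 22862 genes above 0 with a known length (upper panel). The log axis is the authors' mean over 6 libraries in normalized counts per kb of transcript, the dashed line is the median of 46.7, and the open circle is Fabp4 by its longest coding transcript. Adipoq, Cidec, Plin1, Retn, Ucp1 and Lep lie left of the line.

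Among the enzymes, Scd1, the stearoyl-CoA desaturase on chromosome 19 (44394455 to 44407879, minus strand), was the highest of the panel by the authors' mean, at 2255 normalized counts. Per kb it reached 467 normalized counts, more than 88.5% of genes above 0. It was 26.5 times the level of Adipoq per kb, and by mean the pair stood at 2255 and 22.8 normalized counts. The level per kb depended on the transcript: by the median transcript length Scd1 stood at 3007 and Adipoq at 24.9 normalized counts per kb, and by the shortest coding transcript at 6856 and 42.3. Scd1 serves fatty acid desaturation in liver, skin glands and many other cells as well as in fat. Of its 31-base words, 91.9% occur in no other gene. Most of the shared words are also in Scd3, so reads that fit both may have been assigned to either.

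Among the lipid droplet proteins, Plin4 stood apart from Plin1 and Cidec. Plin4, on chromosome 17 (56100591 to 56109803, minus strand), had a mean of 1115 normalized counts, or 194 per kb. Plin4 is made by skeletal and heart muscle as well as by adipocytes. Plin1, the perilipin that guards the droplet of fat cells against lipases, on chromosome 7 (79720218 to 79732903, minus strand), had a mean of 18.1 normalized counts, or 6.42 per kb. Cidec, which fuses droplets into large ones, on chromosome 6 (113424634 to 113435760, minus strand), had 15.7 normalized counts, or 9.14 per kb. Both lay far below Plin4 on either scale. All 31-base words of Plin4 and Cidec, and 98.3% of those of Plin1, were their own.

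Fabp4 and Pparg were the other upper members. Fabp4, the fatty acid carrier of adipocytes that is also found in capillary endothelium and macrophages, lies on chromosome 3 (10204088 to 10208576, minus strand) and had a mean of 486 normalized counts. Its level per kb depended on the transcript: 115 normalized counts per kb by the longest, which is not a coding one, and 542 per kb by the longest coding one, which would put it first in the panel. Pparg had a mean of 246 normalized counts, or 116 per kb, more than 63.8% of genes above 0. By the median transcript length it stood at 269 and by the shortest coding transcript at 495 normalized counts per kb, above the 194 of Plin4 in both. Macrophages and endothelium use Pparg too. By the longest coding transcript Fabp4 was 30.7 times and Pparg 6.57 times the level of Adipoq per kb. By mean they were 21.3 and 10.8 times Adipoq.

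The secreted members were low. Adipoq, which encodes adiponectin, on chromosome 16 (23146536 to 23158028, plus strand), had a mean of 22.8 normalized counts, or 17.6 per kb, a level above that of 38.4% of genes above 0. Retn (resistin), on chromosome 8 (3655770 to 3660110, plus strand), had 6.51 normalized counts, or 5.71 per kb. Lep (leptin), on chromosome 6 (29060220 to 29073877, plus strand), had 1.20 normalized counts, which adds up to 7.20 normalized counts over the 6 libraries together. Per kb it was the lowest of the panel, at 0.368 normalized counts. Ucp1, on chromosome 8 (83290352 to 83298452, plus strand), had a mean of 0.940 normalized counts, or 5.64 over the 6 libraries together, and 0.574 per kb. With values as small as those of Lep and Ucp1 and no depth or spread per library, the order of these genes cannot be given with any confidence.

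Each member with close relatives was set beside its family per kb of the longest transcript, since relatives with the same biochemical role are often made by different cells. Of the 8 members in 7 families, Pparg was the only one that led its family, before and after division by length. It held 53.0% of the summed level per kb of the 3 peroxisome proliferator-activated receptors, 1.75 times the level of Ppara, the receptor of fatty acid burning, with Ppard below both. By mean it held 40.5% and was 1.09 times Ppara, so its lead was small on that scale. The other 7 members stood below a relative.

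Among perilipins, Plin2, the droplet coat of most cell types, held 55.8% of the level per kb and Plin3 held 33.9%. Plin4 held 9.03%, Plin5, the perilipin of oxidative tissue, held 0.957%, and Plin1 held 0.299%. By mean the order of the upper pair turned, with Plin3 at 43.6% and Plin2 at 37.1%, and Plin4 held 18.3%. Plin2 was 186 times Plin1 per kb and 125 times by mean. Among CIDE genes, Cideb, known from liver, held 56.0%, Cidea 28.2% and Cidec 15.8%, but all 3 were low, with means from 15.7 to 39.3 normalized counts.

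Among fatty acid binding proteins, Fabp5, the epidermal form, led with 54.0% of the level per kb. It was 7.32 times Fabp4 per kb of the longest transcripts and 5.09 times by the longest coding ones. By mean it held 68.5% and was 5.60 times Fabp4. The order of the next 3 depended on the scale. Per kb of the longest transcripts Fabp3, the heart and muscle form, held 23.2%, Fabp12 held 10.3% and Fabp4 held 7.38%. By the longest coding transcripts Fabp4 was second in the family with 13.9%, before Fabp3 with 9.25% and Fabp12 with 4.13%. By mean Fabp4 was second as well, with 12.2%, before Fabp12 with 10.2% and Fabp3 with 7.47%. Fabp7, Fabp6, Pmp2, Fabp9 and Fabp2 had means of 49.1, 7.83, 6.21, 1.66 and 0.200 normalized counts, and Fabp1, the liver form, was listed at 0. Fabp4, Fabp5, Fabp9, Fabp12 and Pmp2 lie side by side on chromosome 3, between 10012548 and 10301183. Pmp2 had 11.9% of its 31-base words to itself, Fabp9 51.4% and Fabp3 62.7%, so the values of these genes are uncertain.

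Among the stearoyl-CoA desaturases, Scd2, the form of brain and many other tissues, held 77.8% of the level per kb and Scd1 held 21.7%, so that Scd2 was 3.59 times Scd1. Scd3 and Scd4 each held under 1%, at 0.256% and 0.275%. The uncoupling proteins were led by Ucp2, which is made by many cells, macrophages among them, with 90.1%. Ucp3, the muscle form, held 9.84% and Ucp1 held 0.0997%, and by mean these shares were 6.28% and 0.0425%. In the resistin family Retnla, a gene of alternatively activated macrophages and of fat, held 70.4%, Retnlg 23.1%, Retn 5.01% and Retnlb 1.52%, all at means of at most 48.0 normalized counts. By mean Retn held 9.12% of its family, and Cidec 21.5% of the CIDE genes.

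**Figure D2:**
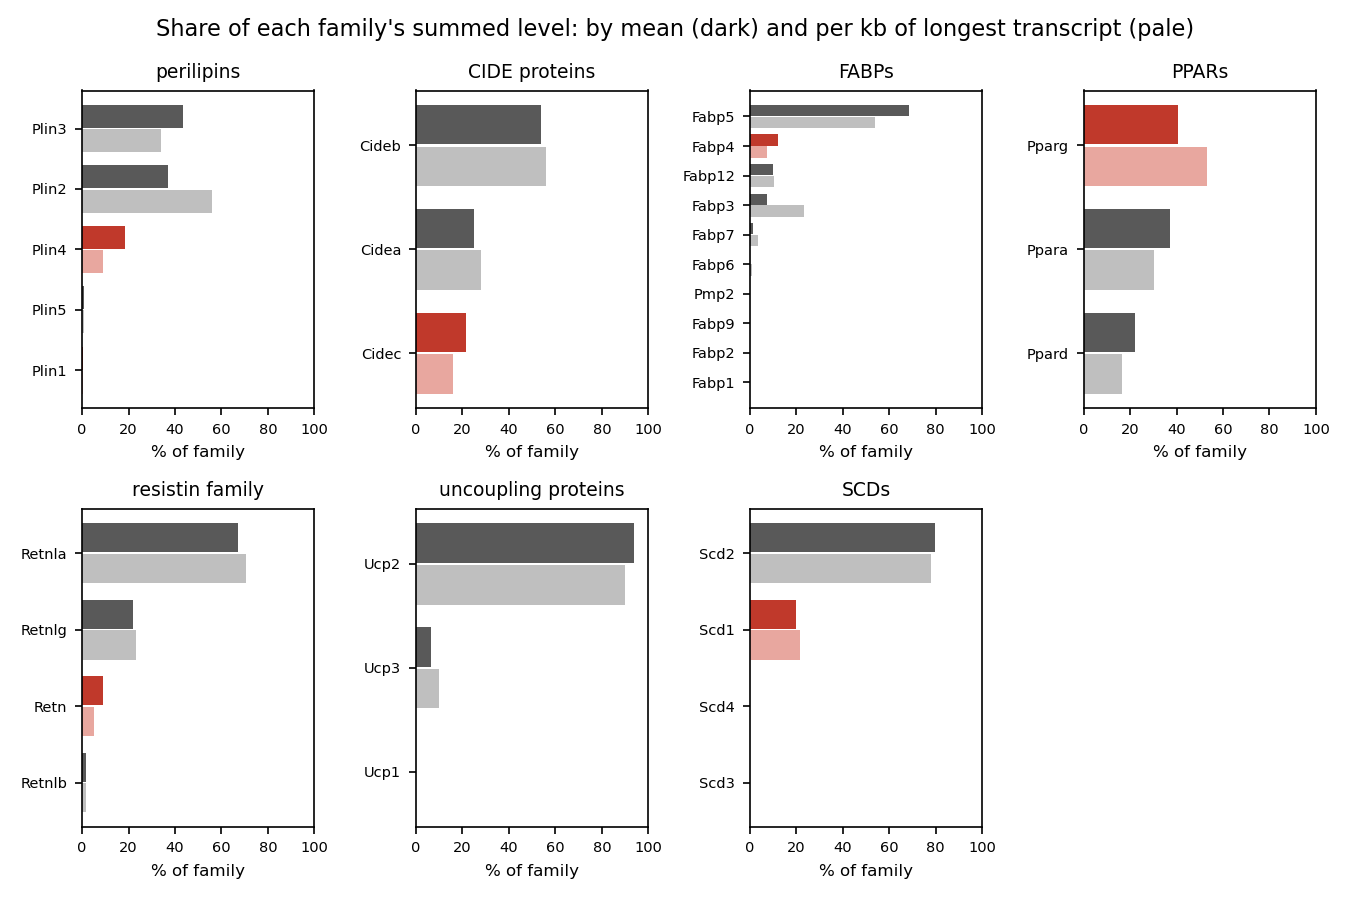
Share of each gene in its family's summed level, in percent, for 7 families (1 panel each), with a dark bar by the authors' mean and a pale bar per kb of the longest transcript. Bars in red are genes of the adipocyte panel and grey bars are their relatives, and Pparg leads its family on both scales, with 40.5% and 53.0%, while Plin1 and Ucp1, each under 1%, are too small to see.

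Other genes of fat biology were taken from 7 lists. Together they held 63 genes outside the panel, of which 49 lay above the median level per kb and 14 at or below it. By mean 49 lay above the median as well. The median here is that of genes of all types above 0, and above the higher median of protein-coding genes lay 41 of the 63 per kb and 35 by mean. Per kb that higher median was 103 normalized counts. Between it and the lower median per kb lay Apln, Sfrp5, Cfd, Gpihbp1, Lipe, Prdm16, Dio2 and Zic1. The counts by list below use the lower median. Of the 63, 9 were at or below Adipoq on both scales: Rbp4, Cidea, Pck1, Aqp7, Adrb3, Elovl3, Otop1, Adig and Acvr1c. In the panel itself 4 of 10 genes were above the median.

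Of the genes of fatty acid and triglyceride synthesis, 12 of 13 lay above the median on both scales, Scd1 included. Gpam, the enzyme that starts glycerolipid synthesis, had a mean of 10151 normalized counts and was 3.52 times Scd1 per kb. Acly, which supplies acetyl-CoA for lipogenesis, had a mean of 3940 normalized counts, or 890 per kb. At the other end stood Pck1, which acts early in the route to glycerol phosphate for storage in fat, with 13.0 normalized counts. It was the only gene of this list below the median per kb.

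Lipid uptake and lipolysis also had 12 of 14 genes above the median per kb, and 11 by mean. Mgll, the monoglyceride lipase, had a mean of 18640 normalized counts, or 4671 per kb, and Cd36, the fatty acid translocase, which RPE also uses to take up outer segments, had 3571, or 1051 per kb. The adipocyte glycerol channel Aqp7 had 21.5 normalized counts and the fat-cell β3-adrenergic receptor Adrb3 had 1.24. These were the genes of the list below the median per kb, and by mean Gpihbp1 was below it too, at 77.2 normalized counts.

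Of the adipogenic transcription factors, 9 of 11 lay above the median per kb and all 11 by mean. Srebf1 was the highest, with a mean of 2965 normalized counts, followed by Rxra, the partner of PPARγ, with 2296. Per kb Pparg was below both, as Srebf1 reached 690 and Rxra 468 normalized counts. Mlxipl was the lowest, with 25.5 per kb. In the list of droplet proteins 6 of 11 were above the median, with Plin2 at 1197 and Plin3 at 728 normalized counts per kb. Plin1 was the lowest per kb and Cidec by mean.

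The secreted factors and the further fat-cell markers were mixed. Of 9 secreted factors, 4 lay above the median per kb and 3 by mean. They were led by Nampt, an enzyme of NAD synthesis that most cells make, with 725 normalized counts per kb. Sfrp5, a Wnt inhibitor, was next with 89.0. Of the 4, only Nampt lay above the protein-coding median per kb. Cfd (adipsin), among the most abundant transcripts of mouse fat, had a mean of 51.2 normalized counts, 3.15 times Adipoq per kb. Of the 9 further markers 6 lay above the median per kb and 5 by mean, and Car3, which fat shares with skeletal muscle, was 47.1 times Adipoq per kb, at a mean of 1395 normalized counts. Tshr, the thyrotropin receptor, had a mean of 1733 normalized counts, or 402 per kb. Slc7a10 had a mean of 840 normalized counts, or 430 per kb. Lipe had 270, or 72.7 per kb, and Pnpla3 had 180, or 137 per kb. Of the genes of this list above the median per kb, Lipe and Cfd lay below the protein-coding median. Adig (adipogenin) had a mean of 3.37 normalized counts, Acvr1c had 9.81 and Adrb3, at 1.24, was the lowest.

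For brown fat, 6 of 10 genes lay above the median per kb. Of these, Prdm16, Dio2 and Zic1 lay below the protein-coding median per kb, and Ppargc1a, Cox7a1 and Cox8b lay above it. The highest were Cox8b and Cox7a1, cytochrome oxidase subunits that brown fat shares with muscle, with 4249 and 1696 normalized counts per kb. Ppargc1a, the coactivator of mitochondrial biogenesis in brown fat, muscle and other tissue, had a mean of 920 normalized counts, or 142 per kb, and stood above Cox7a1 by mean. Cidea had a mean of 18.2 normalized counts, Otop1 6.30, Elovl3 1.89 and Ucp1 0.940. The last was the lowest of the list on both scales.

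The samples were checked against markers of the cells they should and could hold, with 9 lists and 63 genes. RPE markers had a median of 10797 normalized counts per kb, 806 times that of the panel and 1352 times by mean, led by Ttr and Rgr at means of 99321 and 92190 normalized counts. Melanocyte and pigment markers had a median of 15241 per kb, and by mean Dct and Tyrp1 were the highest of them and Mitf was the lowest. As a list of pigment genes, it does not tell melanocytes from the pigmented epithelium. Rpe65, the retinoid isomerase that defines RPE, was 1331 times Adipoq per kb. Best1 was the exception among RPE markers, with a mean of 69.8 normalized counts. Outside the list of lipid-secreting glands, none of the 57 markers was below Adipoq per kb.

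Markers of cells that share upper genes of the panel or other fat genes were above the panel's median of 13.4 normalized counts per kb. That median lies among the lower group of the panel. Of the muscle, endothelium and macrophage markers, only Cd163 was below each of the upper genes per kb. Skeletal muscle, which shares Plin4, Car3, Cox7a1 and Cox8b, had a median of 7743 normalized counts per kb from 1049 for Myh2 to 16179 for Mylpf, and Myh4 and Atp2a1 had the highest means, 51830 and 23891 normalized counts. Endothelium, which shares Fabp4 and Cd36, had a median of 512 per kb, from 257 for Cdh5 to 1187 for Plvap, and Kdr and Flt1 had the highest means. Macrophages, which share Fabp4, Pparg and Ucp2, had a median of 702 per kb, from 60.0 for Cd163 to 29309 for Lyz2, with Csf1r the second by its mean. With 1 mean per gene it cannot be seen whether panel genes follow any of these cells from mouse to mouse, and the part of each in the levels was not tested.

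Fibroblast markers had a median of 7062 normalized counts per kb, and by mean Col1a2 and Col1a1 were at the top and Pdgfra at the bottom. Rod photoreceptor markers had a median of 3850 per kb, with Cnga1 the lowest. Schwann cell markers had a median of 322 per kb, with Pmp22 the highest and Prx the lowest. Lipid-secreting glands of the eyelid and skin, which use Scd1 and Scd3 heavily, were looked for because they lie near the eye. Their 6 markers had a median of 3.44 normalized counts per kb, below that of the panel, with Far2 the highest at a mean of 113 normalized counts, Scd3 next at 19.2 and Dgat2l6 the lowest at 0.881. In all, 8 of the 9 lists had a higher median than the panel on both scales. The order among the lists differed between the scales. By mean the fibroblast list was the highest, with a median of 39498 normalized counts. The melanocyte and pigment list followed with 35224 and the RPE list with 27638. The endothelium list, with 2341, stood above the macrophage list, with 2064.

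**Figure D3:**
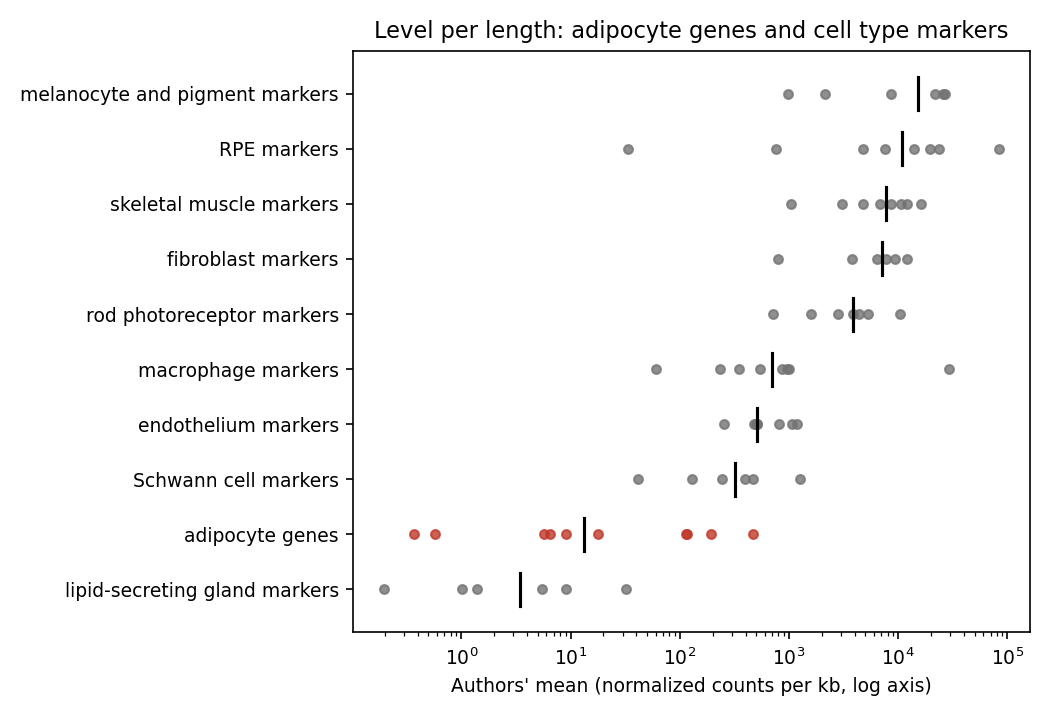
Level of the adipocyte panel (red) and of 9 lists of cell type markers (grey), 1 point per gene, in the authors' mean per kb of the longest transcript (normalized counts per kb, log axis), with a bar at each list's median. The panel's median of 13.4 lies above the lipid-secreting gland list at 3.44 and below the other lists, the lowest of which, Schwann cells, is at 322.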

How the data were processed

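Total RNA of 3 young and 3 aged RPE/choroid samples was depleted of ribosomal RNA and sequenced by the authors from stranded libraries. The authors trimmed reads with BBDuk, mapped them with STAR to Ensembl transcripts of GRCm38, quantified transcripts as TPM, an abundance relative to length, with Sailfish, turned them into normalized counts by the total count method and ran DESeq2. The deposited table has 1 line per gene. Its baseMean column, a normalized signal deposited by the authors, is the mean over all 6 libraries and was the only column of values used. The other 5 columns hold the authors' comparison of ages (fold change, its standard error, statistic and p-values) and were not used. It held 0 columns that name a sample, so depth per library and spread between mice are unknown here. The tests planned for values per library were not run.

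Symbols were matched to GENCODE M21 (GRCm38) for positions and lengths. A length was found for 28553 of 33924 genes (84.2%). Adgre1 was found under its older symbol Emr1. Mean and longest transcript length had a rank correlation of 0.40 across 16467 protein-coding genes above 0. After division by that length it was 0.12. Genes are not independent replicates. TPM is divided by length already, and the correlations do not settle whether the deposited means are, so levels are given by mean and per kb. Family shares and marker levels were planned by mean and are given mostly per kb. Words of 31 bases were compared on the transcript strand. Promoters were those of RefSeq. The helper functions were tested on simulated data. Python 3.11.15, pandas 2.3.3, numpy 2.4.6 and matplotlib 3.10.9 were used. The panel and all lists were chosen with earlier results of these data known. Named were all panel genes, their families, and from each list the highest 2 genes and the lowest, and genes at 0. Other genes were named after their values were seen. Some genes that this rule names are not reported here.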

Additional observations from a re-analysis of the deposited data

How the results depend on the processing

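The number of panel genes above the median gene was 4 over genes with a mean above 0. It was 7 by mean and 5 per kb with no filter on low values, since genes at 0 lower the median by construction, and 3 over genes with a mean of at least 10 or over protein-coding genes by mean, where Pparg was no longer above. Over protein-coding genes per kb it was 4. For the 63 other fat genes, the median of protein-coding genes, chosen as an alternative after the data were seen, gave 41 per kb and 35 by mean in place of 49. The median level of the panel, 13.4 normalized counts per kb of the longest transcript, was 19.4 by the median transcript length, 42.1 by the shortest protein-coding transcript and 20.4 without division by length. By the longest protein-coding transcript, an alternative chosen after the data were seen, it stayed at 13.4, while Fabp4 moved from 115 to 542. By the median and the shortest coding length Scd1 moved from 467 to 3007 and 6856, and Pparg from 116 to 269 and 495, so that Pparg passed Plin4. The number of members that lead their family (1) and the number of marker lists with a higher median than the panel (8) were the same under each alternative run for them. No paired analysis was possible because only means over all mice were used. A replicate block and fits that leave out a library were likewise not run. Without depth or spread per library, means such as those of Lep and Ucp1 cannot be told from 0 with any stated confidence, and no difference between genes has an error.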

Other observations

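Receptors of adiponectin and leptin, whose genes were low in the panel, were above the median of genes above 0. Adipor1 and Adipor2, the adiponectin receptors, had authors' means of 6069 and 4289 normalized counts, or 1761 and 1025 per kb of the longest transcript. Adipor1 was 99.8 times Adipoq per kb and 266 times by mean. Cdh13, which binds the larger forms of adiponectin at the surface of vessels, had 423 normalized counts, or 92.7 per kb. Lepr, the leptin receptor, had 560 normalized counts, or 101 per kb. All 4 lay above the median of 46.7 normalized counts per kb, whereas Adipoq and Lep lay below it. The median of protein-coding genes above 0 was higher, at 103 normalized counts per kb and 333 by mean. Against it Cdh13 and Lepr were below per kb and above by mean, and Adipor1 and Adipor2 were above on both scales. The counts belong to genes as a whole, so the signalling and short forms of Lepr cannot be told apart.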
